A study of Homo sapiens with 10 samples.

Results

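The messenger RNAs of 10 antioxidant genes were followed in microvesicles and in the cells that release them: the peroxiredoxins PRDX1 to PRDX6, the superoxide dismutases SOD1 and SOD2, catalase (CAT) and thioredoxin (TXN). Every probe set whose platform annotation names 1 of these genes was taken, which gave 17 of the 54613 probe sets of the table for 9 of the 10 genes. A further 4 probe sets are annotated with both SOD2 and the overlapping transcript SOD2-OT1, so they are given separately and not as SOD2. The annotation used here names no probe set for PRDX5, which was not analysed here. PRDX2 had 4 probe sets, CAT 3, PRDX3, PRDX6 and TXN 2 each, and PRDX1, PRDX4, SOD1 and SOD2 had 1 each. In RefSeq, build GRCh38.p14, PRDX1 spans chr1:45511051-45522890, PRDX2 chr19:12796823-12801800, PRDX3 chr10:119167720-119178812, PRDX4 chrX:23667493-23686397 and PRDX6 chr1:173477335-173488815. SOD1 spans chr21:31659693-31668931, SOD2 chr6:159669069-159762281, CAT chr11:34438934-34472060 and TXN chr9:110243810-110256507. Which exons the probes of a set match is not given in the sources used here.

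Microvesicles are membrane-bound particles shed by cells, and those measured here came from K562, an established human leukaemia line of chronic myeloid origin with erythroid traits. Total RNA was extracted with Trizol in 5 independent experiments, giving 5 microvesicle arrays and 5 arrays of the parental K562 cells, with no treatment named for either group. How the microvesicles were collected is not given in the sources used here, and equal replicate numbers are not said to mark a shared culture, so each p-value reflects only how far these preparations spread. All values are log2 expression values as deposited, and a change is microvesicles minus cells on that scale. The values are relative within an array, so fewer copies of one transcript and more RNA of other kinds cannot be told apart.

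Peroxiredoxins are thiol enzymes that reduce hydrogen peroxide and organic peroxides with a reactive cysteine. Most are then recycled by thioredoxin, which is itself reduced by thioredoxin reductase at the cost of NADPH. Superoxide dismutases turn superoxide into hydrogen peroxide, which peroxiredoxins, glutathione peroxidases and catalase remove. Red cells and their precursors depend heavily on this defence because haemoglobin iron generates oxidants, and PRDX2 is among the most abundant proteins of the mature red cell.

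The groups differed in more than these genes. Pearson correlations over all probe sets (across probe sets, which are not independent replicates) were 0.911 to 0.944 among microvesicle arrays, 0.990 to 0.997 among cell arrays and 0.851 to 0.906 between the groups. A probe set had a median SD of 0.46 over the microvesicle arrays and 0.15 over the cell arrays. Array medians were 4.22 to 4.28 in microvesicles and 4.08 to 4.12 in cells. For the ACTB controls the 3' level minus the 5' level, a measure of RNA integrity and labelling, was 3.12 ± 0.34 in microvesicles and 2.39 ± 0.15 in cells (SD, n = 5 each, p = 0.00794 by an exact permutation test and 0.0106 after adjustment for 4 array measures). Of the 10 K562 marker genes listed, 9 were measured and all of these lay above the array median in both groups, with a mean level of 7.97 to 8.91 over the microvesicle arrays and 8.83 to 9.14 over the cell arrays. Markers of other cells averaged 4.50 to 4.69 in microvesicles and 3.94 to 4.17 in cells for the 5 platelet genes, and 4.96 to 5.34 in microvesicles and 4.37 to 4.77 in cells for the 5 lymphocyte genes measured, where CD3D alone lay above 6. The 5 fibroblast and endothelial genes averaged 4.91 to 5.50 in microvesicles and 4.38 to 4.85 in cells, and the 2 monocyte genes 3.52 to 4.45 in microvesicles and 3.24 to 3.77 in cells. The mean of the 3 epithelial genes went the other way, at 5.50 to 6.05 in microvesicles and 6.45 to 6.86 in cells. It was led by EPCAM (6.55 ± 0.58 in microvesicles and 9.42 ± 0.23 in cells, SD, n = 5 each). KRT19 did not pass (-0.51, limma adjusted p = 0.076), and the dim CDH1 was higher in microvesicles (0.56, limma adjusted p = 0.02). Of the 20 genes of these lists, 14 were higher in microvesicles and 1 was lower, against 34.6% higher and 30.8% lower over all 19775 genes. The median change over all probe sets was 0.48 at means of 3 to 4 and 0.25 at means of 4 to 5. After loess normalization by level, described below, 2 platelet, 2 lymphocyte, 1 monocyte and 3 fibroblast and endothelial genes were higher, against 25.3% of all genes. Among the epithelial genes 0 were then higher and 1 was lower. The part of integrity or of other cells in the results below was not tested.

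Of the 17 probe sets, 9 were lower in microvesicles and 0 were higher at a limma adjusted p under 0.05. By an unadjusted p under 0.05 or by an exact rank sum test 0 were higher as well. Over all 54613 probe sets 62.4% passed, 27.0% downwards and 35.4% upwards. That background depends strongly on level. Among the 1219 probe sets with a mean of at least 10, where most of the members' brightest probe sets lie, 43.7% passed downwards and 4.92% upwards. The groups did not overlap in 8 of the 17 probe sets, against 45.9% of all probe sets. Taking the probe set with the highest mean for each gene, 7 of 9 genes were lower and 2 did not pass, with a median change of -0.53. Over all 19775 genes 30.8% were lower and the median was 0.20. Because the shift depends on level, most results below are also given after loess normalization by level, which fits each array against the mean array and removes the part of the difference that follows brightness. Loess moved the median change over all probe sets to 0.03, against 0.27 in the deposited values, and then 21.6% of all probe sets passed downwards and 18.1% upwards. After loess 7 of the 17 were lower and 2 were higher. By 1 probe set a gene, 3 of the 9 genes were lower after loess and 3 after a second quantile normalization, with medians of -0.22 for both, against 18.2% of all genes lower after loess. With each array centred on its median, 12 of the 17 were lower and 0 higher, and over all probe sets the split turned to 13032 higher and 16492 lower, against 19318 and 14758 in the deposited values.

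**Figure D1:**
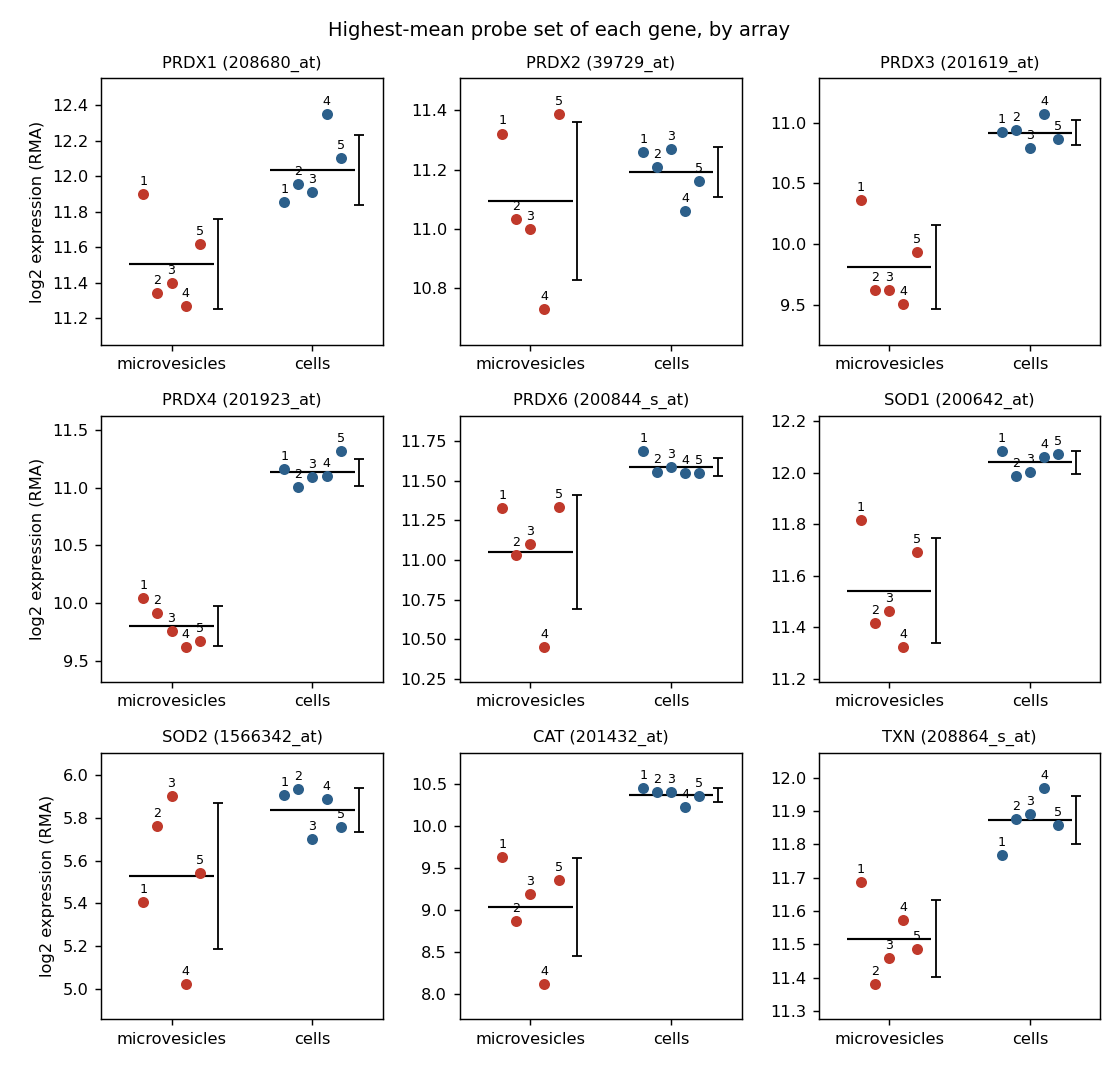
Deposited log2 expression of the highest-mean probe set of each of the 9 measured genes, with 1 point per array numbered by replicate, microvesicles on the left and cells on the right of each panel. The horizontal line is the group mean and the bar beside it is ± 1 SD (n = 5 each). PRDX3, PRDX4, PRDX6, SOD1, CAT and TXN show no overlap between groups, and microvesicles replicate 4 is the lowest microvesicle array for all genes shown but TXN.

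PRDX1 and PRDX2 are the cytosolic 2-cysteine peroxiredoxins, and PRDX1 was lower in microvesicles while PRDX2 did not pass in its 3 brighter probe sets. PRDX1 stood at 11.90, 11.34, 11.40, 11.27 and 11.62 in microvesicles replicates 1 to 5, against 11.86, 11.96, 11.91, 12.35 and 12.10 in cells. Microvesicles replicate 1 lay within the range of the cells and the other 4 arrays lay below it. PRDX1 fell by 0.53 ± 0.18 (SE, n = 5 each, 1.44-fold lower, limma adjusted p = 0.0187). The call was lost without cells replicate 4, the highest cell array (-0.45, limma adjusted p = 0.0549), and after loess (-0.25, limma adjusted p = 0.233).

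PRDX2, the main peroxiredoxin of red cells, had values of 11.32, 11.03, 11, 10.73 and 11.39 in microvesicles by its brightest probe set 39729_at, and 11.26, 11.21, 11.27, 11.06 and 11.16 in cells. The microvesicle arrays lay on both sides of the cell arrays, with 2 above all of them and 3 below. Its change was -0.10 ± 0.17 (SE, 95% confidence interval -0.46 to 0.26, limma adjusted p = 0.617), and 0.27 after loess. The second probe set, 211658_at, averaged 8.83 ± 0.54 in microvesicles and 8.70 ± 0.08 in cells (SD, n = 5 each). Its change of 0.13 did not pass in the deposited values and became 0.84 after loess (limma adjusted p = 0.00621). Probe set 215067_x_at ran from 4.72 to 7.16 over the microvesicle arrays, against 6.23 to 6.47 in cells, and did not pass. The dimmest, 201006_at, was lower in microvesicles, at 3.78 to 4.38 against 4.63 to 4.81 in cells, a change of -0.58 ± 0.17 (SE, limma adjusted p = 0.00908; -0.75 after loess). Its microvesicle mean lies below the median of all values, 4.19, and without a detection call it is not known to exceed background. The 4 probe sets of PRDX2 thus differed.

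PRDX3 and PRDX4 work in organelles, PRDX3 in the matrix of mitochondria and PRDX4 in the endoplasmic reticulum and the secretory pathway. Both were clearly lower in microvesicles. PRDX3 stood at 10.36, 9.62, 9.63, 9.51 and 9.93 in microvesicles (201619_at), against 10.92, 10.94, 10.79, 11.07 and 10.87 in cells. Every microvesicle array lay below every cell array, with replicate 1 the closest. The change was -1.11 ± 0.18 (SE, 2.15-fold lower, limma adjusted p = 0.000233), and -0.62 after loess (limma adjusted p = 0.00644). The second PRDX3 probe set, 209766_at, was dim, at 3.91 ± 0.80 in microvesicles and 4.56 ± 0.21 in cells (SD, n = 5 each), and did not pass (-0.64 ± 0.31, SE, limma adjusted p = 0.0857; -0.87 with an adjusted p of 0.0342 after loess). Its microvesicles replicate 4 stood at 5.25, above all cell arrays, and without that array the change was -0.97 (limma adjusted p = 0.00119).

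PRDX4 values were 10.04, 9.91, 9.76, 9.62 and 9.67 in microvesicles, against 11.16, 11.01, 11.09, 11.11 and 11.32 in cells. All microvesicle arrays lay far below all cell arrays. The change was -1.34 ± 0.16 (SE, 2.53-fold lower, limma adjusted p = 1.19e-05), and -0.87 after loess (limma adjusted p = 0.000356). Over the settings that leave out 1 array it ran from -1.40 to -1.29, with a limma adjusted p of at most 9.01e-05.

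PRDX6 uses a single reactive cysteine, is recycled with glutathione rather than thioredoxin and also acts on phospholipids. By 200844_s_at it stood at 11.33, 11.03, 11.10, 10.45 and 11.33 in microvesicles, against 11.69, 11.56, 11.59, 11.55 and 11.55 in cells. The groups did not overlap, and microvesicles replicate 4 lay well below the other arrays of its group. PRDX6 fell by 0.54 ± 0.19 in this probe set (SE, 1.45-fold lower, limma adjusted p = 0.022), with a limma adjusted p of 0.0527 without cells replicate 1 and a change of -0.19 after loess (limma adjusted p = 0.376). The other probe set, 200845_s_at, did not pass (-0.38 ± 0.16, SE, limma adjusted p = 0.0555; 0.024 after loess). Without microvesicles replicate 1, its highest microvesicle array at 11.12, that probe set passed, with a limma adjusted p of 0.013.

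SOD1, the copper-zinc dismutase of the cytosol, was slightly lower in microvesicles. Its values were 11.82, 11.42, 11.46, 11.33 and 11.69 in microvesicles, against 12.08, 11.99, 12.001, 12.06 and 12.07 in cells. The cell arrays lay close together and all above the microvesicle arrays. SOD1 fell by 0.50 ± 0.16 (SE, 1.41-fold lower, limma adjusted p = 0.0136), and its change after loess was -0.22 (limma adjusted p = 0.238).

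SOD2 is the manganese dismutase of mitochondria. Its only probe set annotated with SOD2 alone, 1566342_at, was dim and stood at 5.40, 5.76, 5.90, 5.02 and 5.54 in microvesicles, against 5.91, 5.94, 5.7001, 5.89 and 5.76 in cells. The groups overlapped, and the change of -0.31 ± 0.18 did not pass (SE, 95% confidence interval -0.70 to 0.08, limma adjusted p = 0.149; 0.17 after loess). Of the 4 probe sets annotated with SOD2 and SOD2-OT1, 2 were lower in microvesicles. Probe set 216841_s_at averaged 6.31 ± 0.37 in microvesicles and 7.53 ± 0.26 in cells (SD, n = 5 each), a change of -1.22 (limma adjusted p = 0.000253). Probe set 215223_s_at averaged 7.03 ± 0.46 in microvesicles and 7.98 ± 0.07 in cells (SD, n = 5 each), a change of -0.95 (limma adjusted p = 0.00175). Both lost the call after loess, at -0.36 and -0.09. The remaining 2, 221477_s_at (-0.16) and 215078_at (0.58; 0.016 after loess), did not pass.

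CAT, the haem enzyme of peroxisomes that splits hydrogen peroxide, was lower in microvesicles by both of its brighter probe sets. Probe set 201432_at stood at 9.64, 8.87, 9.19, 8.12 and 9.36 in microvesicles, against 10.46, 10.41, 10.40, 10.24 and 10.36 in cells. No microvesicle array reached the cells, and the microvesicle arrays spread widely, with replicate 4 the lowest. The change was -1.34 ± 0.24 (SE, 2.53-fold lower, limma adjusted p = 0.000434), and -0.76 after loess (limma adjusted p = 0.00907). Probe set 211922_s_at changed by -1.44 ± 0.23 (SE, limma adjusted p = 0.000188), from means of 6.60 in microvesicles and 8.04 in cells. After loess this stood at -0.57 (limma adjusted p = 0.0426), and after a second quantile normalization it did not pass (-0.57, limma adjusted p = 0.083). The third, 215573_at, averaged 2.81 in microvesicles and 3.23 in cells, below the median of all values in both groups, and did not pass (-0.42 ± 0.26, SE, limma adjusted p = 0.162; -0.93 with an adjusted p of 0.00728 after loess).

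TXN, the small disulfide reductase that recycles most peroxiredoxins, changed least among the genes that passed. By 208864_s_at it stood at 11.69, 11.38, 11.46, 11.57 and 11.49 in microvesicles, against 11.77, 11.88, 11.89, 11.97 and 11.86 in cells. The groups did not overlap, but microvesicles replicate 1 came close to cells replicate 1. TXN fell by 0.36 ± 0.15 (SE, 1.28-fold lower, limma adjusted p = 0.0463), and stood at -0.06 after loess (limma adjusted p = 0.763). The call was lost in 7 of the 10 settings that leave out 1 array, namely without microvesicles replicate 2 or 3 or without any one of the 5 cell arrays, with limma adjusted p-values up to 0.0976. The dimmer probe set 216609_at did not pass in the deposited values (0.24 ± 0.27, SE, limma adjusted p = 0.444) and was higher in microvesicles after loess (1.10, limma adjusted p = 0.00322), so the 2 probe sets of TXN differed in sign.

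**Figure D2:**
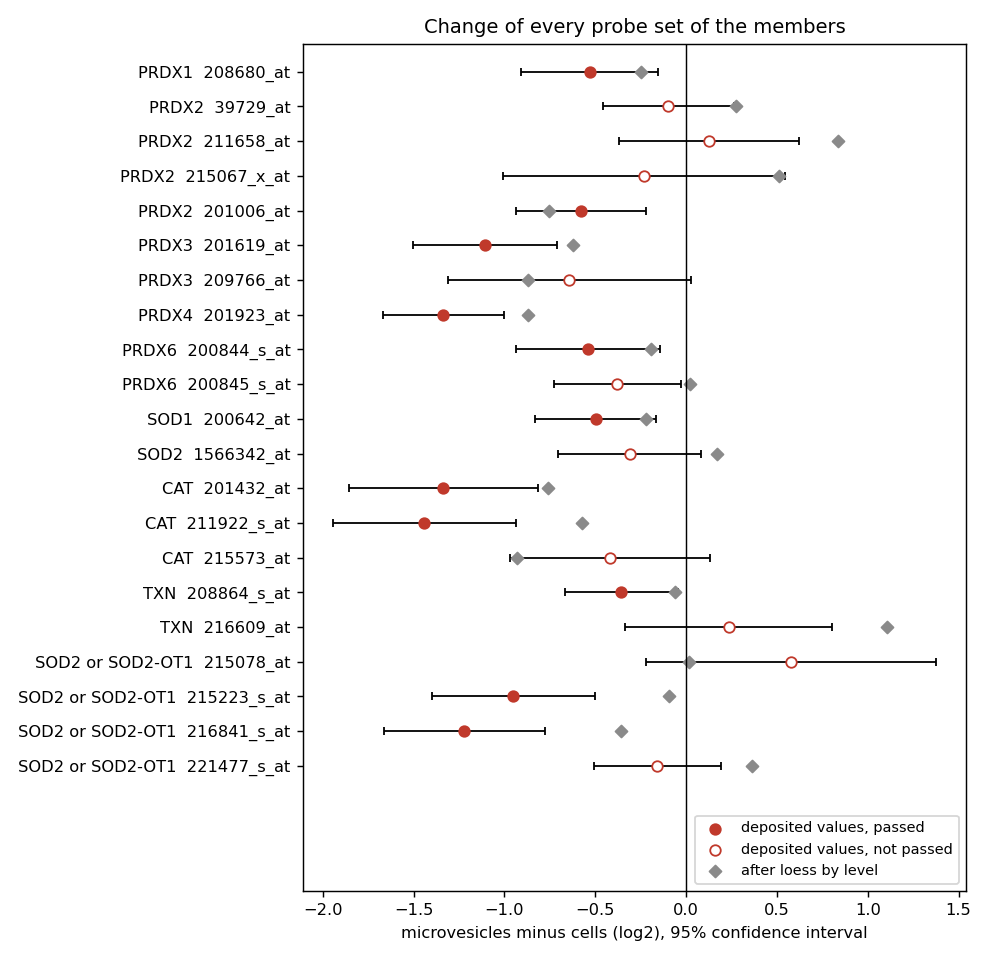
Change of each of the 21 probe sets, microvesicles minus cells on the log2 scale, with its 95% confidence interval from limma. Filled circles passed at an adjusted p under 0.05, open circles did not, and grey diamonds are the changes after loess by level. The diamonds of PRDX3 (201619_at), PRDX4 and the 2 brighter CAT probe sets lie between -0.87 and -0.57. Those of PRDX1, PRDX6, SOD1 and TXN (208864_s_at) lie nearer 0, between -0.25 and 0.024. The dim probe sets PRDX2 201006_at, PRDX3 209766_at and CAT 215573_at have diamonds at -0.75, -0.87 and -0.93.

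Set against probe sets of like level, the members differed. In the deposited values 5.85% of the 650 probe sets with a mean between 10 and 11 had a lower change than PRDX4, and 11.4% had a lower change than PRDX3. For CAT it was 12.8% of the 1187 probe sets between 9 and 10 by 201432_at, but 32.1% of the 3015 between 7 and 8 by 211922_s_at. At the other end, 88.5% of the 1947 probe sets between 8 and 9 had a lower change than PRDX2 211658_at, and 90.2% of those between 7 and 8 than TXN 216609_at. The genes with means between 11 and 12 lay closer to the middle of their 317 probe sets, whose median change was -0.32. There 29.7% of probe sets had a lower change than PRDX6 (200844_s_at), 30.9% than PRDX1, 33.1% than SOD1, 46.4% than TXN (208864_s_at) and 73.5% than PRDX2 (39729_at). These shares describe the arrays and are not tests.

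**Figure D3:**
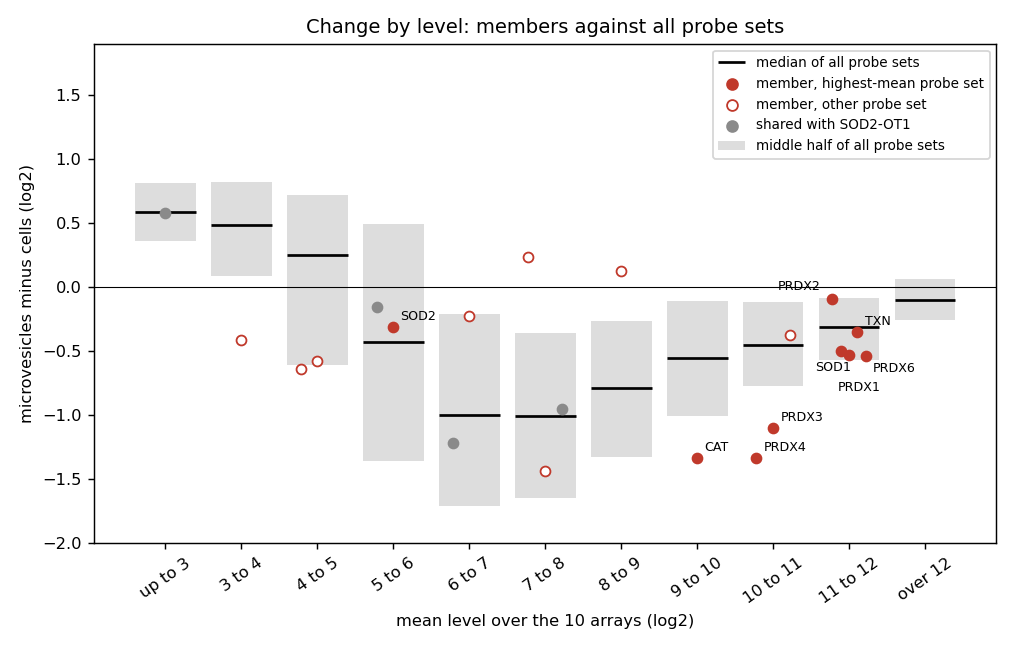
Change (log2, microvesicles minus cells) of the members' probe sets by their mean level over the 10 arrays, in bins of 1 log2 unit, placed over the median (black line) and the interquartile range (grey bar) of all probe sets in each bin. Horizontal positions within a bin carry no value. Among the labelled highest-mean probe sets CAT, PRDX3 and PRDX4 lie below the grey bar of their bin, and PRDX1, PRDX2, PRDX6, SOD1, SOD2 and TXN lie within it. Of the other probe sets, CAT 215573_at and PRDX3 209766_at lie below the bar of their bin, and TXN 216609_at and PRDX2 211658_at lie above it. The rest, such as CAT 211922_s_at, lie within it.

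Differences between members were tested by the per-array difference of their highest-mean probe sets, in which a shift common to the whole array cancels. There were 8 pairs, and the smallest exact permutation p the design allows is 0.00794. Relative to PRDX1, the change was lower for PRDX4 by 0.81 ± 0.13 (SE), for CAT by 0.81 ± 0.22 and for PRDX3 by 0.58 ± 0.08, and higher for PRDX2 by 0.43 ± 0.14 (SE, n = 5 each, exact permutation p = 0.00794 and adjusted p = 0.0159 for each of the 4). SOD1 (0.03 ± 0.09), PRDX6 (-0.01 ± 0.15) and TXN (0.17 ± 0.11) did not differ from PRDX1 by more than the spread between arrays (SE, n = 5 each, exact permutation adjusted p = 0.88, 0.944 and 0.254), and neither did SOD2 from SOD1 (0.19 ± 0.18, exact permutation adjusted p = 0.476). After loess the differences from PRDX1 were -0.62 for PRDX4, -0.51 for CAT, -0.37 for PRDX3 and 0.52 for PRDX2, and that of CAT no longer passed (n = 5 each, exact permutation adjusted p = 0.0635). With the mean of all probe sets of a gene, PRDX3 (-0.34) and PRDX2 (0.34) no longer differed from PRDX1 beyond the threshold (n = 5 each, exact permutation adjusted p = 0.203 and 0.143), whereas TXN did (0.47, exact permutation adjusted p = 0.0317). The PRDX2 difference was also lost without microvesicles replicate 2 or 5 (n = 4 and 5, exact permutation adjusted p up to 0.0635).

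PRDX3, PRDX4 and CAT were lower in microvesicles by their highest-mean probe set in the deposited values and after centring, a second quantile normalization or loess. The dim PRDX2 probe set 201006_at was also lower under all 4 scalings. Promoter sequences are shown for PRDX3, PRDX4 and CAT, the members whose highest-mean probe set passed downwards under all 4. Each is the 250 bases before the gene's start in RefSeq, build GRCh38.p14, read 5′ to 3′ on the gene's strand, with capitals marking matches to the E-box CACGTG or to the CCAAT box on either strand. PRDX3 lies on chr10:119178813-119179062 (minus strand), PRDX4 on chrX:23667243-23667492 (plus strand) and CAT on chr11:34438684-34438933 (plus strand).
PRDX3: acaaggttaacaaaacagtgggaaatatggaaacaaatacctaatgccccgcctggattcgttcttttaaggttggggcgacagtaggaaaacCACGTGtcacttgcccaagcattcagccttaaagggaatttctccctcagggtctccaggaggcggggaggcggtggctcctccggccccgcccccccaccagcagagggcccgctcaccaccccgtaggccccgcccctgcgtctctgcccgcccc
PRDX4: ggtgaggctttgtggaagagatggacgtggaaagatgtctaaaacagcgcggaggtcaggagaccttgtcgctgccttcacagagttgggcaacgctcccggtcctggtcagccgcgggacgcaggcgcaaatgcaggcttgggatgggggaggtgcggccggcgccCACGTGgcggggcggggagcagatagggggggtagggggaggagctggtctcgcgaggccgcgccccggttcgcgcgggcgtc
CAT: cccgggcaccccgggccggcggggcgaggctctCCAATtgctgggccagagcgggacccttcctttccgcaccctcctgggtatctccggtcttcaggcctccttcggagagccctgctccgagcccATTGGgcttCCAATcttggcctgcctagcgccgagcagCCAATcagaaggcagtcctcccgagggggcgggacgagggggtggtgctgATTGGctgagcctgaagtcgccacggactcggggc

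The PRDX3 and PRDX4 windows each held 1 E-box, whose first base lies 157 and 83 bases before the start, and the CAT window held 5 CCAAT boxes on either strand. Among all 35116 promoter windows of this length, 6.34% held an E-box and 32% a CCAAT box. The motifs were chosen after these sequences were seen, so the shares are no test of enrichment. The core of the antioxidant response element, TGACNNNGC on either strand, through which the factor NRF2 acts, was in 10.9% of all windows. It was in none of the 11 windows of the 7 members with a window in the table (PRDX2, PRDX3, PRDX4, PRDX5, SOD2, CAT and TXN). The RefSeq windows of SOD2 held 4 CCAAT boxes in all, and those of PRDX2, PRDX5 and TXN held neither of the other motifs. A match describes these letters in this window and is not a binding site.

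The members shared part of their order over the microvesicle arrays. By highest-mean probe set, microvesicles replicate 4 was the lowest of its group for 8 of the 9 genes, all but TXN, and replicate 1 the highest for 6. The share of all genes with this order was not counted, so it is not known to be particular to the members. Among other genes, replicate 4 was also the lowest for KLF1, MGST1 and EPCAM, but not for TXNIP or GPX1. Replicate 4 also had the largest ACTB 3' minus 5' difference of the microvesicle arrays (3.64) and replicate 1 the smallest (2.72), and the part of integrity in this was not tested.

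Genes whose values over the 10 arrays ran closest to the members' were sought among 7066 other genes with a mean of at least 6, by the root mean square difference of log2 deviations from each gene's own mean. The closest to SOD1 was the nucleosome-binding protein gene HMGN2, at 0.055. PRDX1 ran closest to MLLT11 (0.063), PRDX3 to the spindle checkpoint gene BUB3 (0.075), CAT to the ribosome assembly gene TSR1 (0.079) and PRDX4 to TMEM181 (0.10). The median difference over all candidates was between 0.45 and 0.61 for the 9 genes. The measure holds the change between the groups, so a gene of like change comes out close, such as BUB3 (-1.10, against -1.11 for PRDX3). Whether these genes vary with a member within a group was not tested.

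Other genes of the antioxidant defence were taken from lists and read by 1 probe set a gene from the same limma fit, against 30.8% lower and 34.6% higher over all 19775 genes, and 18.2% lower and 25.3% higher after loess. In the thioredoxin system 6 of 12 measured genes were lower and 1 was higher, with a median change of -0.41 (3 higher, 1 lower and a median of -0.03 after loess). The thioredoxin reductase TXNRD1, which reduces TXN, averaged 8.95 ± 0.18 in microvesicles and 9.70 ± 0.18 in cells (SD, n = 5 each), a change of -0.75 (limma adjusted p = 0.00157; -0.12 and not passed after loess). TXNIP, which binds and inhibits thioredoxin, changed by -1.18 (-0.54 after loess, where it did not pass, adjusted p = 0.107) and the endoplasmic reticulum protein gene TXNDC12 by -1.72 (-1.07 after loess). SRXN1, the sulfiredoxin that restores overoxidised peroxiredoxins, did not pass in the deposited values (-0.05 ± 0.15, SE, limma adjusted p = 0.805) but was higher after loess (0.82, adjusted p = 0.00188) and after a second quantile normalization (0.86), and the spliceosome protein gene TXNL4A rose by 0.52 (0.98 after loess; 0.36 and not passed with centring, adjusted p = 0.0646).

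In the glutathione system 8 of 20 genes were lower and 4 higher, with a median of -0.13 (4 lower, 8 higher and 0.21 after loess). Glutathione reductase, GSR, stood at 7.31 ± 0.37 in microvesicles and 9.37 ± 0.22 in cells (SD, n = 5 each), a change of -2.06 (limma adjusted p = 2.68e-06; -1.29 after loess). GPX8, a peroxidase of the endoplasmic reticulum, changed by -1.82 (-1.08 after loess). GPX4, which protects membrane lipids from peroxidation, was higher in microvesicles, at 10.53 ± 0.11 against 10.17 ± 0.06 in cells (SD, n = 5 each), a change of 0.36 (limma adjusted p = 0.0418; 0.85 after loess; 0.20 and not passed with centring, adjusted p = 0.243). GPX1 and GPX3 had the largest rises of the list, 1.42 and 1.06, from dim probe sets at 3.83 and 4.53 in microvesicles and 2.40 and 3.48 in cells (0.93 and 0.77 after loess).

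Among the regulators and targets of the KEAP1-NRF2 pathway 4 of 14 genes were lower and 2 higher, with a median of -0.38 (2 lower, 3 higher and 0.37 after loess). NFE2L2, which encodes NRF2 itself, averaged 9.26 ± 0.34 in microvesicles and 10.11 ± 0.45 in cells (SD, n = 5 each), a change of -0.84 (limma adjusted p = 0.00737; -0.26 and not passed after loess). Its inhibitor KEAP1 (-0.10 ± 0.16, SE, limma adjusted p = 0.573) and its target NQO1 (-0.25 ± 0.18, SE, limma adjusted p = 0.235) did not pass. Both signs turned after loess, where KEAP1 was higher (0.71, limma adjusted p = 0.00504; 0.75 after quantile normalization) and NQO1 did not pass (0.42, limma adjusted p = 0.0797). MAFG, a small partner protein of NRF2, rose by 2.16 ± 0.17, to 10.59 in microvesicles against 8.43 in cells (limma adjusted p = 5.28e-07; 2.77 after loess), and its relative MAFF changed by -1.63 (-0.90 after loess). ME1, an NADPH-producing malic enzyme, changed by -1.31 (-0.61 after loess), and HMOX1, which degrades haem, by 0.78 from a dim probe set at 3.87 in microvesicles and 3.10 in cells. HMOX1 did not pass after loess (0.35, limma adjusted p = 0.268) or quantile normalization (0.48).

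Partners of superoxide removal and oxidative repair had 5 falls and 4 rises among 12 genes and a median of -0.19 (3 and 3, and 0.40 after loess). OXR1 changed by -1.94 (-1.07 after loess), the sestrin SESN1 by -1.72 (-0.95 after loess), the methionine sulfoxide reductase MSRB3 by 0.92 (1.71 after loess) and the dim SESN3 by 0.97. SESN3 did not pass after loess (0.48, limma adjusted p = 0.0849) or quantile normalization (0.60). Of 8 metallothioneins, small metal-binding proteins that also scavenge oxidants, 3 were higher and 0 lower by limma, with 0 lower at an unadjusted p under 0.05 and 0 lower after centring, quantile normalization or loess. The 3 of 8 are near the 34.6% of all genes that were higher. The median was 0.35, and 1.12 after loess, where 6 were higher against 25.3% of all genes. MT2A stood at 10.52 ± 0.21 in microvesicles and 9.81 ± 0.35 in cells (SD, n = 5 each), a change of 0.70 (limma adjusted p = 0.00729; 1.22 after loess), and MT1H changed by 0.73 (1.46 after loess). Metallothionein transcripts are closely alike, so a probe set may read more than 1 of them.

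**Figure D4:**
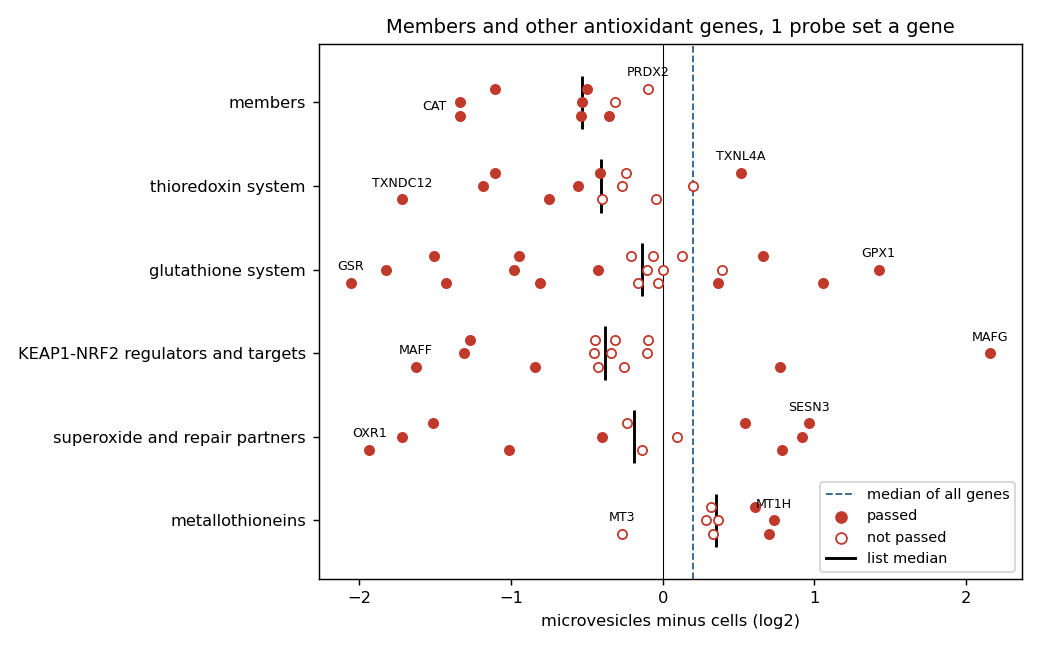
Change (log2, microvesicles minus cells) of the 9 measured members and of the genes of 5 other antioxidant lists, 1 probe set a gene. Filled points passed at a limma adjusted p under 0.05, black bars are list medians and the dashed line is the median of all genes, and vertical scatter carries no value. All 9 members lie below 0 in the deposited values by these probe sets, although PRDX2 and SOD2 turned above 0 after loess. Most of these have means of at least 10, where 43.7% of all probe sets passed downwards and 4.92% upwards. The dimmer PRDX2 211658_at (0.13) and TXN 216609_at (0.24), not shown, lie above 0. The other lists, with dimmer genes such as GPX1 and SESN3, hold changes of both signs, from GSR at -2.06 to MAFG at 2.16.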

How the data were processed

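RNA of 5 microvesicle and 5 cell preparations was hybridised to Affymetrix arrays, 1 array per preparation. The deposited values are log2 expression, which the authors computed by RMA per the submitters' processing notes. The version is not given in the sources used here. The deposited distributions still differed, with an SD over probe sets of 1.89 to 1.99 in microvesicles and 2.33 to 2.36 in cells. No detection call was used. Of 54630 probe sets, 17 controls were left out, 41091 name 1 gene, 1801 several and 11721 none. The RefSeq gene number named 41037 of the 41091.

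Microvesicles were compared with cells by limma 3.58.1 in R 4.3.3 (lmFit and eBayes, 1 mean per group, 2-sided, Benjamini-Hochberg over all 54613 probe sets, threshold 0.05), tested on simulated data. Pairs of members were compared by exact permutation tests, 2-sided. Lists used the highest-mean probe set of each gene. From each list up to 2 rises and 2 falls were named, plus TXNRD1, TXNIP, SRXN1, GPX1, GPX4, NFE2L2, KEAP1, HMOX1 and NQO1. The members and lists were chosen with earlier results of these data known, and the promoter motifs after the sequences were seen. Alternatives covered scaling (centring, a second quantile normalization, loess with a span of 0.3), filters, variance models, an exact rank sum test, a block and leaving out each array. The number of arrays limits the precision.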

Additional observations from a re-analysis of the deposited data

Results flagged for a closer look

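In 3 of the 42 groups of 5 values (21 probe sets in 2 groups), 1 array stood apart from the other 4 by a gap of more than 0.71 of the group's range, where chance gives about 1 in 20. All 3 were cell arrays. PRDX6 (200844_s_at) stood at 11.69 in cells replicate 1, with the next array at 11.59, and CAT (211922_s_at) at 8.35 in cells replicate 1, with the next at 8.03. TXN (216609_at) stood at 6.69 in cells replicate 5, with the next at 6.96. Without cells replicate 1 the call of PRDX6 (200844_s_at) was lost (limma adjusted p = 0.0527), and that of CAT (211922_s_at) stayed.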

How the results depend on the processing

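Of the 17 probe sets, 9 were lower and 0 higher. A second quantile normalization gave 5 lower and 2 higher, loess 7 lower and 2 higher, and requiring an absolute change of 1 or more left 4 lower. Over all 54613 probe sets, quantile normalization gave 10111 lower and 10282 higher, and loess 11819 lower and 9911 higher. How many of all probe sets passed at a change of 1 or more was not counted. Leaving out 1 array gave 7 to 10 lower and 0 higher, against 13591 to 14990 lower and 15790 to 19710 higher over all probe sets. Over the 21 probe sets and the 10 alternatives other than leaving out an array, where each gave a value, 161 values kept sign and call, 16 lost the call, 14 gained it and 11 changed sign. With centring PRDX2 (211658_at) stood at -0.032. The other sign changes came with quantile normalization and loess, at 0.27 and 0.27 for PRDX2 (39729_at), 0.44 and 0.51 for PRDX2 (215067_x_at), 0.0093 and 0.024 for PRDX6 (200845_s_at), 0.17 and 0.17 for SOD2, and 0.37 and 0.36 for 221477_s_at (SOD2 or SOD2-OT1). Without microvesicles replicate 5, PRDX2 stood at -0.023 (211658_at) and 0.12 (215067_x_at), against up to 0.34 and down to -0.49 without other arrays. The cause was not tested. In the 5 lists together, 14 genes higher and 23 lower became 9 higher with centring, 23 higher and 10 lower with loess, and 10 lower with quantile normalization. Over all probe sets, 19318 higher became 9911 with loess, 10282 with quantile normalization, 6393 of 29724 at a mean of at least 4 and 976 of 11835 at a mean of at least 6. Downwards, a separate fit of the 11835 probe sets with a mean of at least 6 gave 7706 lower, against 14758 over all probe sets.

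Against PRDX1, averaging the probe sets of each gene gave 0.34 for PRDX2 and -0.34 for PRDX3 (both lost), 0.47 for TXN (gained, exact permutation adjusted p = 0.0317) and 0.071 for PRDX6, and loess gave 0.057 for PRDX6 and -0.51 for CAT (lost). Leaving out 1 array gave 0.32 to 0.49 for PRDX2, -0.62 to -0.53 for PRDX3, -0.89 to -0.74 for PRDX4, -0.92 to -0.64 for CAT, -0.096 to 0.082 for PRDX6, -0.042 to 0.087 for SOD1 and 0.10 to 0.23 for TXN, and 0.07 to 0.29 for SOD2 against SOD1. Same-numbered arrays deviated together by r = -0.03 to 0.11, over 0.1 in 1 of 5. These values are small, but for cells replicates 1, 3, 4 and 5 the same-numbered microvesicle array had the highest r (0.04, 0.08, 0.11 and 0.07). Cells replicate 2 went the other way, at -0.03 with its own number and 0.07 with microvesicles replicate 3. Whether equal numbers mark a shared culture was not tested, and the main fit does not pair the arrays. With the replicate number as a block 9 of 17 were lower and 0 higher, with TXN (208864_s_at) lost and PRDX3 (209766_at) gained. Over all 54613 probe sets the block gave 14606 lower and 18708 higher. Pairing the arrays left the differences from PRDX1 at 0.43, -0.58, -0.81 and -0.81 for PRDX2, PRDX3, PRDX4 and CAT, where exact sign permutation of 5 pairs cannot reach the threshold (adjusted p = 0.125).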
